A study of Mus musculus with 5 samples.

Results

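Interferon-stimulated genes are the genes that cells switch on after type I or type III interferon binds its receptor, and 37 of them were followed here across the cell classes and libraries of a mouse mammary tumour data set. The list names known interferon targets, out of 41028 gene names, of which 24299 had at least 1 unique molecular identifier (UMI, a tag that marks each captured transcript). Mx2 was listed at 0 in every library, so 36 of the 37 had UMIs. The tumours came from PyMT mice, in which the mammary epithelium expresses the polyoma middle T antigen. They were digested and enriched for viable cells, and single cells were captured in droplets (10x Genomics Chromium 3′ v2) or in microwells (BD Rhapsody whole transcriptome assay). The 5 libraries were fresh 10x (2 libraries, called fresh 10x 1 and fresh 10x 2), stored 10x (1 library, 24 h by its title, from a digest held at 4 °C until viability measured by flow cytometry had fallen), BD 1 (1 fresh library) and BD 2 (1 library). The title of BD 2 says fresh and its deposited data are named for 24 h, so no storage state was assumed for it and it stood as a group of its own. No age, strain or further treatment was given in the labels. Nothing in the labels says whether the libraries came from separate mice, so p-values measure only the spread between these samples, which may be technical.

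As background, interferon alpha and beta act through the receptor chains Ifnar1 and Ifnar2 and interferon lambda through Ifnlr1 and Il10rb. Both receptors activate Jak1 and Tyk2, which phosphorylate Stat2, and Stat2 acts with Irf9 in the factor ISGF3. ISGF3 binds the interferon-stimulated response element (ISRE), whose core is the letters GAAA repeated across a short gap, in the promoters of its targets. The products detect foreign nucleic acid, degrade or sequester RNA, tag proteins with the ubiquitin-like protein Isg15, or feed back on the pathway itself. In tumours such genes are followed both in cancer cells and in the immune and stromal cells around them. Interferon gamma uses another receptor, acts mainly through the GAS element, and shares part of these targets.

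The ISRE is shown first because it is the feature of sequence that defines this regulation, and because the list was not drawn up from promoter sequence. Promoter windows were those of RefSeq (GRCm38.p6), 250 bases before to 50 after each annotated start, and 27 of the 37 genes matched that table. Dhx58, Ifi27, Ifi27l2a, Mx1, Mx2, Oas2, Parp14, Rtp4, Usp18 and Zbp1 did not. The letters GAAA, then any 2 bases, then GAAA again, on either strand and with overlapping matches counted, occurred in 15 of the 27 genes (55.6%), against 1079 of 27025 genes of the table (3.99%). Counted by window, 18 of 34 windows of these genes (52.9%) and 1131 of all 32851 windows (3.44%) held the motif. The GAS letters TTCNNNGAA occurred in 7 of the 27 genes (25.9%) and in 2582 of the 27025 (9.55%). Each sequence below is a window of 30 bases, 5′ to 3′ on the strand named, with the matched motif in capitals and its first base counted from the annotated start of the gene. They are those of genes on which the class and library results turn.
Isg15, chr4:156200871-156200900, minus strand, first motif base at -72: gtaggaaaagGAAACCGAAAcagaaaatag
Ifit1, chr19:34640775-34640804, minus strand, first motif base at -104: actgagactgGAAAGTGAAActgaagcctg
Ifit1, chr19:34640794-34640823, minus strand, first motif base at -85: tcagcagtgaGAAACTGAAActgagactgg
Ifit3, chr19:34583363-34583392, minus strand, first motif base at -156: accagaagagGAAAGTGAAActtaccactg
Ifit3b, chr19:34607759-34607788, minus strand, first motif base at -188: accagaagagGAAAGTGAAActtaccactg
Bst2, chr8:71537583-71537612, minus strand, first motif base at -130: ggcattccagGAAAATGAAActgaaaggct
Stat2, chr10:128270266-128270295, minus strand, first motif base at -222: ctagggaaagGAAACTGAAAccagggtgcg
Oas1a, chr5:120907520-120907549, minus strand, first motif base at -14: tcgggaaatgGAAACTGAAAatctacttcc
Rsad2, chr12:26456553-26456582, plus strand, first motif base at -120: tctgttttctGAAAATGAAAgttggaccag
Trim30a, chr7:104465210-104465239, plus strand, first motif base at -36: caggaactgaGAAAAAGAAActaaagaact
Ifitm3, chr7:141010706-141010735, minus strand, first motif base at 19: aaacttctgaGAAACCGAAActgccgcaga
Apol9a, chr15:77411120-77411149, plus strand, first motif base at -105: ctgggaaatgGAAACTGAAAgtctcacctc
Apol9b, chr15:77729025-77729054, minus strand, first motif base at -37: ctgggaaatgGAAACTGAAAgtctcacctc

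Isg15 held 3 overlapping matches in its window, and the one printed is the middle of these. The Ifit3 and Ifit3b windows printed are identical in all 30 bases, as are those of Apol9a and Apol9b. Reads of such paralogs can be divided between the copies in counting, so Ifit3 with Ifit3b and Apol9a with Apol9b are uncertain as separate genes. Ifi27 lies within the annotated span of Ifi27l2a on chromosome 12, so these too may share reads, and Mx1 and Mx2 are annotated as transcribed pseudogenes in this assembly. No match to the repeated GAAA was found in the windows of Cmpk2, Herc6, Ifi35, Ifi44, Ifit2, Irf7, Irf9, Isg20, Lgals3bp, Oasl1, Oasl2 and Xaf1, which says only that these letters were not in these windows.

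The libraries held up to 4186 cells each and 15958 in all, and 29166129 to 59957945 UMIs, with a median of 8926 to 12474 UMIs per cell. The median share of mitochondrial UMIs was 6.14% to 7.17% in the 10x libraries, against 15.2% (BD 1) and 19.8% (BD 2). BD 1 and BD 2 shared 24 cell barcodes and the 10x libraries shared 1, 1 and 5 by pair, and 0 of these barcodes had identical counts. Cells were grouped without using the 37 genes, and the groups were named from markers. Epithelial-like cells numbered 10383, fibroblast-like 1191, macrophage-like 790, endothelial-like 415, lymphocyte-like 258 and mural-like 174. Epithelial-like cells had 245 to 296 UMIs of 8 epithelial markers per 10000 UMIs. The same markers reached 6.85% to 13.7% of that level in macrophage-like, 2.59% to 13.4% in lymphocyte-like, 1.60% to 10.1% in fibroblast-like, 1.36% to 13.0% in endothelial-like and 2.32% to 4.18% in mural-like cells. The macrophage-like class also held mast cell markers in BD 1 and BD 2 (10.2 and 15.7 per 10000 UMIs, against 0.110 to 0.172 in the 10x libraries) and haemoglobin transcripts in stored 10x (49.2). Dendritic cell markers stood at 0.110 to 1.46 per 10000 UMIs in macrophage-like cells. At clustering resolution 2.0 the class held 538 cells. There a cluster of 270 cells led by Mcpt4 and Cpa3, with H2-Ab1 and Irf8 among its leading genes, matched dendritic markers best and stayed unnamed. The part of these other cells and transcripts in the results below was not tested. Levels below are UMIs of a gene per 10000 UMIs summed over the cells of a class in a library, in the order fresh 10x 1, fresh 10x 2, stored 10x, BD 1, BD 2 unless stated. Both platforms count transcript 3′ ends, so no correction for gene length was made.

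All classes carried transcripts of these genes, and in epithelial-like, fibroblast-like, endothelial-like and mural-like cells 5 abundant genes made up most of the sum. Summed over the 37 genes, epithelial-like cells had 15.9, 19.0, 12.2, 11.5 and 9.95 UMIs per 10000. Fibroblast-like cells had 26.9 to 33.5, endothelial-like 29.6 to 34.7 (4 libraries) and mural-like 33.0 to 42.1 (3 libraries), above the epithelial-like sum in each of those libraries. In macrophage-like cells the sum was 13.4 to 25.0, also above the epithelial-like sum of the same library in 5 of 5. In lymphocyte-like cells it was 8.93 to 12.9, above in 2 of 5. Ifitm3, a membrane protein that blocks virus entry, was the most abundant of them in every epithelial-like, fibroblast-like, endothelial-like and mural-like library. Without Ifitm3, Ifi27, Ifi27l2a, Bst2 and Lgals3bp the order of the classes changed: the sum was 4.54 to 7.23 in epithelial-like, 5.06 to 6.53 in fibroblast-like, 6.77 to 8.04 in endothelial-like, 1.61 to 6.77 in mural-like, 6.04 to 12.7 in macrophage-like and 3.99 to 8.11 in lymphocyte-like cells. Set against the epithelial-like sum of the same library, macrophage-like cells were then above it in 5 of 5 libraries, endothelial-like in 4 of 4, fibroblast-like and lymphocyte-like in 4 of 5 each and mural-like in 0 of 3.

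**Figure D1:**
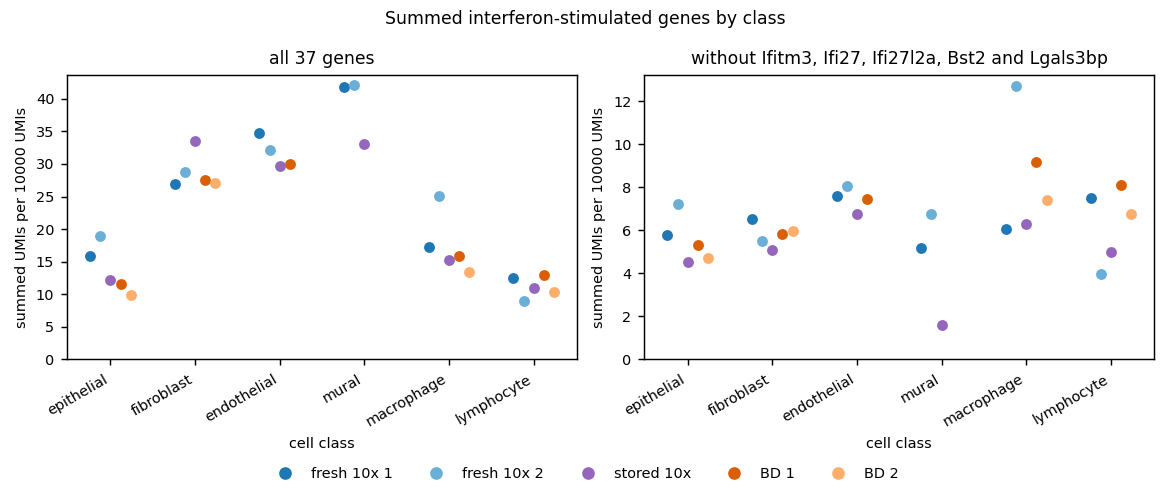
Summed level of the 37 interferon-stimulated genes (UMIs per 10000 UMIs of the class) and of the 32 that remain without Ifitm3, Ifi27, Ifi27l2a, Bst2 and Lgals3bp, by cell class. Each point is 1 library. The stromal classes stand above the epithelial-like cells with all 37 genes (26.9 to 42.1 against 9.95 to 19.0), and the pooled ranges overlap without the 5 abundant genes, where macrophage-like cells are still above the epithelial-like cells of the same library in 5 of 5.

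By the median over libraries, the top class was macrophage-like for 12 genes, endothelial-like for 11, epithelial-like for 5 (Mx2, at 0 everywhere, among them), fibroblast-like for 4, lymphocyte-like for 4 and mural-like for 1. These medians rest on different libraries: 4 for endothelial-like cells (no BD 2), the 3 10x libraries for mural-like cells and 5 for the other classes. Over the 3 10x libraries alone, which hold every class (a count added after seeing the data), the counts were 13 for macrophage-like, 11 for endothelial-like, 5 for fibroblast-like, 4 for lymphocyte-like, 2 for epithelial-like and 1 for mural-like cells, and 30 of 36 genes had the same top class. For most genes the top class and the next were not separated: the top class lay above the second in every library compared for only 9 genes. These were Oas1a, Oasl1, Ifit2 and Mx1 in macrophage-like cells, Isg20 and Apol9b in lymphocyte-like cells, Ifi44 in endothelial-like, Ifi27 in fibroblast-like and Ifitm3 in mural-like cells. Irf7, the factor that amplifies interferon production, had its highest median in epithelial-like cells (0.562) ahead of macrophage-like cells (0.441), but this order held in 1 of 5 libraries.

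**Figure D2:**
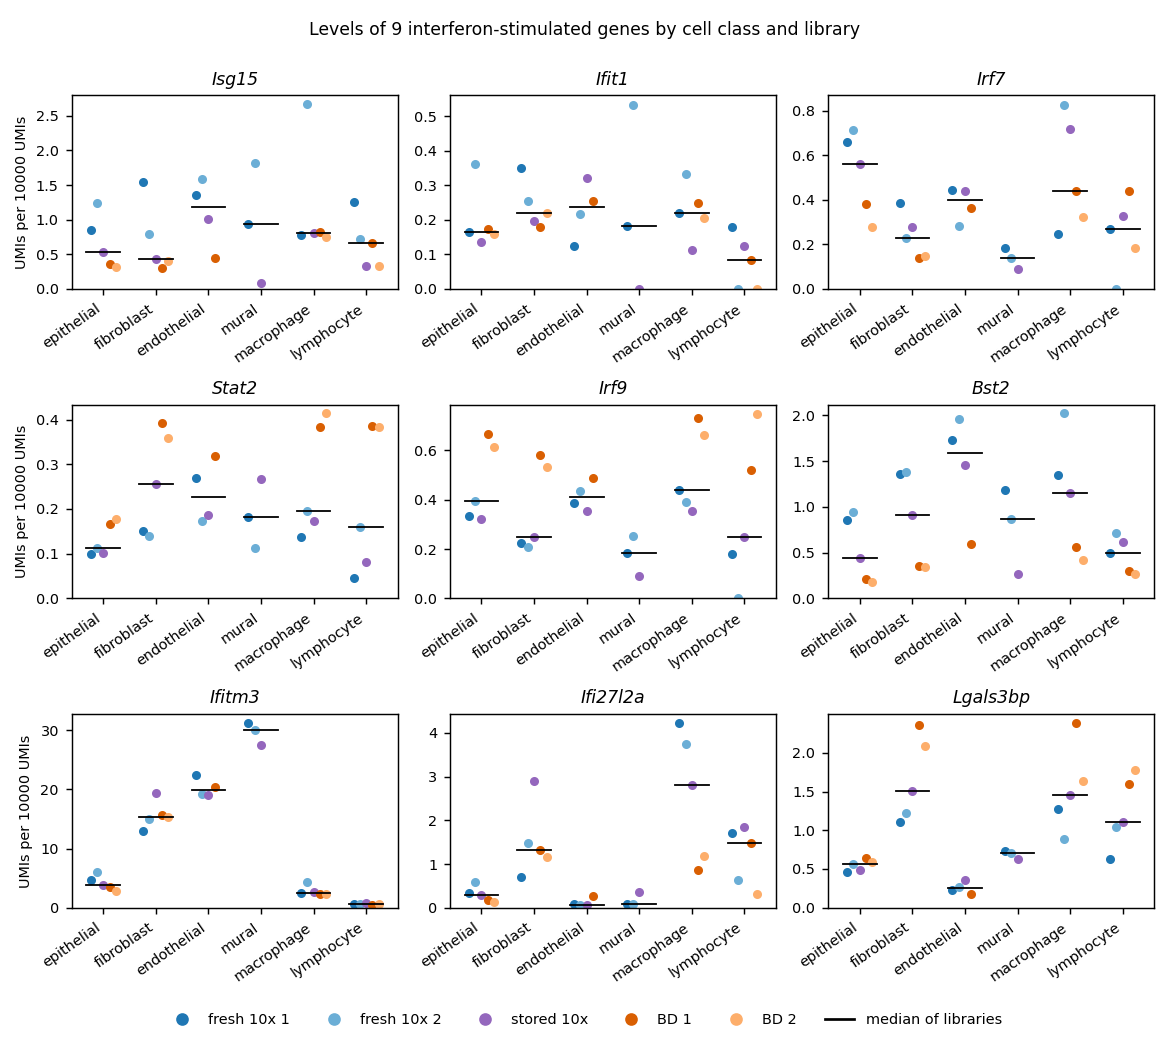
Level of 9 of the genes (UMIs per 10000 UMIs) by cell class, with 1 point per library and a line at the median of the libraries. Ifitm3 runs from under 1 in lymphocyte-like cells to 27.5 to 31.2 in mural-like cells, while the points of most other genes overlap between neighbouring classes.

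Macrophage-like cells carried more transcript of most of these genes than the epithelial-like cells of the same libraries. In edgeR's quasi-likelihood test with the library as a block, 23 of 36 genes were higher and 6 lower at an adjusted p under 0.05, beside 28.7% higher and 32.1% lower of all 12879 genes tested (60.8% in either direction). The median log2 fold change was 0.93 over the 36 genes and -0.07 over all genes. With the 538 macrophage-like cells of clustering resolution 2.0 these medians were 0.85 and -0.14. All 5 of the OAS family, which make the 2′-5′ oligoadenylates that activate RNase L or are relatives of those enzymes, were higher. So were 3 of 4 IFIT genes, which bind foreign RNA, and 3 of 3 genes of Isg15 conjugation and TRIM proteins. Among the genes of virus restriction 4 of 6 rose and 1 fell, of the signalling genes 3 of 4 rose, and of the 4 nucleic acid sensors none passed the test. The remaining 10 induced genes divided into 5 higher and 5 lower.

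Ifit2, an RNA-binding IFIT protein, showed the steepest difference, with 0.0136, 0.0143, 0.0123, 0.0189 and 0.0135 in epithelial-like cells and 0.11, 0.828, 0.111, 0.417 and 0.268 in macrophage-like cells. The macrophage-like value was above the epithelial-like one in 5 of 5 libraries (log2 fold change 4.62 ± 0.32 (SE), edgeR adjusted p = 3.59e-09). Trim30a, a TRIM protein that restrains innate signalling, had 0.035, 0.0348, 0.0302, 0.0539 and 0.0368 and 0.442, 0.575, 0.516, 0.979 and 0.766 (log2 fold change 4.32 ± 0.15 (SE), edgeR adjusted p = 2.62e-13). Every macrophage-like value of Trim30a exceeded every epithelial-like value. Rsad2 encodes viperin, an enzyme that makes a chain-terminating nucleotide. It had 0.0306, 0.0875, 0.0341, 0.0522 and 0.035 in epithelial-like and 0.0552, 0.621, 0.506, 0.678 and 0.512 in macrophage-like cells (log2 fold change 3.64 ± 0.23 (SE), edgeR adjusted p = 9.94e-10), and fresh 10x 1 was far below the other macrophage-like libraries. Mx1 stood at 0.00591 to 0.0327 and 0.0607 to 0.276 (log2 fold change 3.48 ± 0.30 (SE), edgeR adjusted p = 4.33e-08). Ifi27l2a, a small mitochondrial interferon-induced protein, had 0.333, 0.593, 0.286, 0.187 and 0.136 and 4.22, 3.75, 2.8, 0.872 and 1.18 (log2 fold change 3.17 ± 0.18 (SE), edgeR adjusted p = 1.65e-10), with the 10x libraries above the BD libraries in macrophage-like cells. Oas3 ranged over 0.0045 to 0.0118 and 0.023 to 0.0702 (log2 fold change 2.77 ± 0.41 (SE), edgeR adjusted p = 2.04e-05), and Oasl1, which limits Irf7 translation, over 0.0283 to 0.0617 and 0.0552 to 0.701 (log2 fold change 2.71 ± 0.30 (SE), edgeR adjusted p = 8.15e-07). Parp14, an ADP-ribosyltransferase, spanned 0.08 to 0.157 and 0.322 to 0.497 (log2 fold change 1.95 ± 0.15 (SE), edgeR adjusted p = 9.21e-09).

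Isg15, the ubiquitin-like protein itself, had 0.854, 1.25, 0.538, 0.365 and 0.313 in epithelial-like cells and 0.773, 2.67, 0.809, 0.828 and 0.756 in macrophage-like cells. It was above its epithelial-like partner in 4 of 5 libraries, the exception being fresh 10x 1 (log2 fold change 1.08 ± 0.16 (SE), edgeR adjusted p = 2.87e-05). Bst2, or tetherin, which holds budding virus at the cell surface, had 1.35, 2.02, 1.15, 0.561 and 0.415 against 0.859, 0.947, 0.445, 0.207 and 0.176 (log2 fold change 1.37 ± 0.13 (SE), edgeR adjusted p = 1.34e-07), higher in 5 of 5 libraries. Stat2 rose (log2 fold change 1.21 ± 0.16 (SE), edgeR adjusted p = 6.61e-06) and so did Lgals3bp, a secreted galectin-binding glycoprotein (log2 fold change 1.63 ± 0.15 (SE), edgeR adjusted p = 9.21e-08). Ifit1 (log2 fold change 0.41 ± 0.16 (SE), edgeR adjusted p = 0.0399) and Irf9 (log2 fold change 0.32 ± 0.12 (SE), edgeR adjusted p = 0.0307) passed, and each missed the threshold in most alternative analyses. With cells gated on marker transcripts (2 libraries) the log2 fold change of Irf9 was -0.035. Leaving out any 1 library ended the calls of Irf9 and Ifi35, leaving out any but fresh 10x 2 that of Ifit1, leaving out BD 2 those of Oas2 and Ifi44, and leaving out fresh 10x 1 that of Ifitm3. Irf7 did not pass, with 0.248, 0.828, 0.718, 0.441 and 0.322 against 0.658, 0.713, 0.562, 0.383 and 0.278 (log2 fold change 0.28 ± 0.17 (SE), edgeR adjusted p = 0.162). The other genes called higher were Ifit3 (1.84), Herc6 (1.46), Usp18 (1.14), Oas2 (1.10), Oas1a (1.10), Isg20 (1.09), Oasl2 (0.78), Xaf1 (0.73) and Ifi35 (0.35), given with their log2 fold changes. That of Isg20 was -1.07 with the marker gate. Lymphocyte markers in macrophage-like cells stood at 3.42 and 1.99 per 10000 UMIs in the fresh 10x pair and at 0.182 to 0.532 in the other libraries, and their part was not tested. Those that fell were Apol9b (0.0424 to 0.0781 against 0 to 0.0303, log2 fold change -2.73 ± 0.54 (SE), edgeR adjusted p = 0.000412) and Apol9a (log2 fold change -2.28 ± 0.42 (SE), edgeR adjusted p = 0.000208), apolipoprotein L genes, together with Ifi27 (-1.25), Rtp4 (-0.72), Ifi44 (-0.70) and Ifitm3 (-0.34). Those not called were Dhx58 (0.57), Zbp1 (0.33), Ifih1 (0.31), Irf7 (0.28), Ifit3b (0.27), Cmpk2 (0.25) and Eif2ak2 (-0.10). Within a platform the counts were 17 higher and 4 lower for the 10x libraries alone, beside 20.0% and 21.2% of all genes, and 21 higher and 6 lower for BD alone, beside 28.3% and 31.4%. Without the library block they were 15 and 3, beside 22.2% and 22.8%. With the marker gate 12 were higher, beside 17.1% and 22.6% of all genes higher and lower.

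Fibroblast-like cells had some of these genes higher and others lower than epithelial-like cells. Of 35 genes tested 15 were higher and 8 lower, beside 31.7% and 41.5% of 13363 genes (73.2% in either direction), so the share called in either direction was not above that of all genes. The median log2 fold change was 0.28 over these genes and -0.16 over all genes. Ifitm3 had 13, 15, 19.4, 15.7 and 15.3 against 4.63, 5.95, 3.9, 3.42 and 2.77 in epithelial-like cells (log2 fold change 1.95 ± 0.17 (SE), edgeR adjusted p = 6.71e-06). Every fibroblast-like library was above every epithelial-like one. Ifi27l2a had 0.714, 1.47, 2.9, 1.32 and 1.17, highest in stored 10x (log2 fold change 2.36 ± 0.33 (SE), edgeR adjusted p = 0.000185), and Lgals3bp 1.11, 1.22, 1.51, 2.36 and 2.09 (log2 fold change 1.54 ± 0.11 (SE), edgeR adjusted p = 2.71e-06). Ifit2 (0.0802 to 0.13, log2 fold change 2.88 ± 0.19 (SE), edgeR adjusted p = 1.22e-06) and Trim30a (0.147 to 0.355, log2 fold change 2.77 ± 0.16 (SE), edgeR adjusted p = 6.58e-07) rose as well. Isg20, a 3′ to 5′ exonuclease, spanned 0.142 to 0.44 (log2 fold change 2.04 ± 0.20 (SE), edgeR adjusted p = 1.70e-05), Ifit3 0.0831 to 0.247 (log2 fold change 1.55 ± 0.27 (SE), edgeR adjusted p = 0.000662) and Oasl2 0.212 to 0.604 (log2 fold change 1.06 ± 0.11 (SE), edgeR adjusted p = 2.14e-05). The others called higher were Stat2 (0.95), Bst2 (0.78), Zbp1 (0.64), Xaf1 (0.59), Parp14 (0.52), Herc6 (0.39) and Ifi27 (0.30).

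Among the genes that fell in fibroblast-like cells was Irf7, with 0.386, 0.229, 0.279, 0.137 and 0.146 against 0.658, 0.713, 0.562, 0.383 and 0.278 (log2 fold change -1.17 ± 0.14 (SE), edgeR adjusted p = 5.36e-05), below its epithelial-like partner in 5 of 5 libraries. Ifi44, a GTP-binding-like protein, fell furthest (0.0104 to 0.0579 against 0.143 to 0.318, log2 fold change -2.86 ± 0.30 (SE), edgeR adjusted p = 2.80e-05). Oasl1 (log2 fold change -1.44 ± 0.25 (SE), edgeR adjusted p = 0.000733) and the cytosolic RNA sensor relative Dhx58 (log2 fold change -1.19 ± 0.21 (SE), edgeR adjusted p = 0.000717) also fell. Rtp4, a chaperone-like membrane protein, followed (log2 fold change -0.80 ± 0.14 (SE), edgeR adjusted p = 0.000885), then Irf9 (log2 fold change -0.44 ± 0.10 (SE), edgeR adjusted p = 0.00462), Ifih1, the double-stranded RNA sensor MDA5 (log2 fold change -0.35 ± 0.11 (SE), edgeR adjusted p = 0.0164), and Ifi35 (log2 fold change -0.30 ± 0.09 (SE), edgeR adjusted p = 0.0153). Isg15 did not pass (1.55, 0.8, 0.434, 0.304 and 0.399 in fibroblast-like cells, log2 fold change -0.00 ± 0.20 (SE), edgeR adjusted p = 0.988), higher than its epithelial-like partner in fresh 10x 1 and BD 2 and lower in the other 3 libraries. Ifit1 did not pass either (log2 fold change 0.32 ± 0.19 (SE), edgeR adjusted p = 0.173). The 10x libraries alone gave 13 higher and 7 lower, beside 31.0% and 31.1% of all genes, and the BD libraries alone 15 and 6, beside 33.9% and 37.2%. Without fresh 10x 2 the count of lower genes was 5, since Irf9, Ifih1 and Ifi35 no longer passed, beside 32.9% and 37.4% of all genes higher and lower. Leaving out BD 1 ended the calls of Ifih1, Ifi27 and Ifi35, BD 2 that of Ifih1, fresh 10x 1 that of Herc6 and stored 10x those of Herc6 and Ifi27. The marker gate left 5 lower, beside 24.6% and 36.2% of all genes higher and lower. Without the library block 11 were higher and 5 lower, beside 26.0% and 29.9%.

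In endothelial-like cells, taken from the 4 libraries with at least 20 such cells (BD 2 had 13), 10 of 34 genes tested were higher and 10 lower than in epithelial-like cells, beside 24.3% and 34.6% of 12743 genes (58.9% in either direction). The median log2 fold change was -0.06 over these genes and -0.20 over all genes. The 10x libraries alone gave 11 and 9, beside 25.6% and 30.8% of all genes, and BD alone had 1 library and no value. Ifitm3 had 22.5, 19.3, 19.1 and 20.4 in fresh 10x 1, fresh 10x 2, stored 10x and BD 1 (log2 fold change 2.03 ± 0.16 (SE), edgeR adjusted p = 1.09e-07), each above all 5 epithelial-like values. Trim30a (0.25 to 0.532, log2 fold change 3.15 ± 0.24 (SE), edgeR adjusted p = 6.81e-08) and Ifit2 (0.0363 to 0.423, log2 fold change 2.84 ± 0.60 (SE), edgeR adjusted p = 0.00101) rose. Parp14 (0.404 to 0.678, log2 fold change 1.86 ± 0.18 (SE), edgeR adjusted p = 1.01e-06), Rsad2 (0.0851 to 0.445, log2 fold change 1.79 ± 0.31 (SE), edgeR adjusted p = 0.00023) and Herc6, the mouse ligase for Isg15 (0.153 to 0.327, log2 fold change 1.58 ± 0.26 (SE), edgeR adjusted p = 0.00012), were higher. Bst2 had 1.73, 1.96, 1.46 and 0.596, higher than its epithelial-like partner in 4 of 4 libraries (log2 fold change 1.06 ± 0.14 (SE), edgeR adjusted p = 2.51e-05). Xaf1, a pro-apoptotic protein (log2 fold change 1.06 ± 0.21 (SE), edgeR adjusted p = 0.000665), Stat2 (log2 fold change 0.84 ± 0.22 (SE), edgeR adjusted p = 0.00458) and Isg15 (1.35, 1.58, 1.02 and 0.447, log2 fold change 0.37 ± 0.12 (SE), edgeR adjusted p = 0.0194) completed the genes called higher.

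The genes that fell in endothelial-like cells included both Apol9 genes, Apol9a at 0.00727 to 0.0426 (log2 fold change -3.04 ± 0.44 (SE), edgeR adjusted p = 4.55e-05) and Apol9b (log2 fold change -2.03 ± 0.53 (SE), edgeR adjusted p = 0.0047). Zbp1, the sensor of Z-form nucleic acid that can trigger necroptosis, had 0.0654, 0.0543, 0.0509 and 0.0639, below every epithelial-like value (log2 fold change -2.42 ± 0.25 (SE), edgeR adjusted p = 2.02e-06). Ifi27l2a fell to 0.0509 to 0.277 (log2 fold change -2.04 ± 0.42 (SE), edgeR adjusted p = 0.000896), opposite in sign to its difference in macrophage-like, lymphocyte-like and fibroblast-like cells. Oas2 (log2 fold change -1.64 ± 0.63 (SE), edgeR adjusted p = 0.0387), Oas1a (log2 fold change -1.48 ± 0.39 (SE), edgeR adjusted p = 0.00469) and Lgals3bp (log2 fold change -1.23 ± 0.18 (SE), edgeR adjusted p = 4.30e-05) were lower. Ifih1 (log2 fold change -0.97 ± 0.24 (SE), edgeR adjusted p = 0.00319), Irf7 (log2 fold change -0.84 ± 0.19 (SE), edgeR adjusted p = 0.00158) and Ifi27 (log2 fold change -0.73 ± 0.11 (SE), edgeR adjusted p = 6.47e-05) fell less. Ifit1 (log2 fold change -0.16 ± 0.30 (SE), edgeR adjusted p = 0.678) and Irf9 (log2 fold change -0.16 ± 0.14 (SE), edgeR adjusted p = 0.366) did not pass. Mx1 was at 0 in all 4 libraries, where a count of 0 over the class allows up to 0.00894 per 10000 UMIs, so its level was at least 1.38-fold lower than in the epithelial-like cells of the same libraries (counting error only). Leaving out any 1 library ended the call of Oas2, leaving out fresh 10x 1 those of Stat2, Oas1a and Isg15, and leaving out stored 10x that of Isg15. Without fresh 10x 1 or fresh 10x 2 the median over the genes turned positive, at 0.10 or 0.23.

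Mural-like cells reached 20 cells in the 3 10x libraries alone and are described without a test. There 6 of the 36 genes were above epithelial-like cells in all 3 libraries and 17 below. No share over all genes was counted beside these. Within a library of this class a count of 0 allows up to 0.0842 to 0.268 per 10000 UMIs. That is more than the epithelial-like level of genes such as Oas2 (0.0305), so a gene can stand below through counts of 0 alone. Ifitm3 was at its highest of any class, 31.2, 30 and 27.5. In the fresh 10x pair the sum of the 37 genes was highest in this class, whereas in stored 10x fibroblast-like cells had 33.5 and mural-like cells 33.0. Bst2 had 1.18, 0.87 and 0.268 and Isg15 0.94, 1.82 and 0.0892, and in stored 10x both were low (27 cells). Oas2, Oas3, Mx1 and Apol9b were at 0 in all 3 libraries. A count of 0 over the class allows up to 0.0376 per 10000 UMIs, which only for Apol9b lies below the epithelial-like level (0.0558 in these libraries, at least 1.48-fold).

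Lymphocyte-like cells had more of these genes lower than higher. Of 35 genes tested 7 were higher and 12 lower than in epithelial-like cells, beside 18.6% and 34.2% of 12433 genes (52.8% in either direction), shares close to those of all genes. The median log2 fold change was -0.17 for these genes and -0.30 for all. The test used epithelial-like cells of clustering resolution 2.0 (1344 in fresh 10x 1). Epithelial-like levels printed beside its values are those of resolution 1.0 (1103 in fresh 10x 1). Isg20 had 1.08, 0.399, 0.864, 0.962 and 1.15 against 0.0748, 0.0667, 0.0608, 0.0774 and 0.065 (log2 fold change 3.52 ± 0.24 (SE), edgeR adjusted p = 1.08e-22), with every lymphocyte-like library above every epithelial-like one. Trim30a had 0.855, 0.319, 0.206, 0.714 and 0.485 (log2 fold change 3.49 ± 0.31 (SE), edgeR adjusted p = 1.53e-16). Apol9b, which was lower in macrophage-like and endothelial-like cells, was here 0.27, 0.16, 0.37, 0.522 and 0.526 (log2 fold change 2.48 ± 0.32 (SE), edgeR adjusted p = 1.65e-10), while Apol9a did not pass (log2 fold change -0.03 ± 0.41 (SE), edgeR adjusted p = 0.964). Ifi27l2a had 1.71, 0.638, 1.85, 1.48 and 0.324 (log2 fold change 1.91 ± 0.23 (SE), edgeR adjusted p = 1.56e-11), Parp14 0.319 to 0.577 (log2 fold change 1.85 ± 0.27 (SE), edgeR adjusted p = 1.41e-08), Herc6 0.123 to 0.405 (log2 fold change 1.56 ± 0.35 (SE), edgeR adjusted p = 0.000102) and Lgals3bp 0.63 to 1.78 (log2 fold change 0.93 ± 0.19 (SE), edgeR adjusted p = 1.59e-05).

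Ifitm3 was the clearest of the genes that fell in lymphocyte-like cells, with 0.675, 0.558, 0.781, 0.494 and 0.627, all below the lowest epithelial-like value of 2.77 (log2 fold change -2.83 ± 0.18 (SE), edgeR adjusted p = 6.41e-24). Ifi44 (0 to 0.0798, log2 fold change -4.42 ± 0.62 (SE), edgeR adjusted p = 4.18e-09), Oasl2 (0 to 0.0824, log2 fold change -2.76 ± 0.53 (SE), edgeR adjusted p = 6.53e-06) and Ifit1 (0 to 0.18, log2 fold change -1.60 ± 0.46 (SE), edgeR adjusted p = 0.00228) fell. So did Rsad2 (0 to 0.045, log2 fold change -2.92 ± 1.07 (SE), edgeR adjusted p = 0.0176), Ifit3b (log2 fold change -2.82 ± 1.09 (SE), edgeR adjusted p = 0.0245) and Cmpk2, the nucleotide kinase next to Rsad2 (log2 fold change -2.61 ± 0.82 (SE), edgeR adjusted p = 0.00515). With the marker gate (2 libraries) the log2 fold change of Rsad2 was 0.49. Leaving out BD 2 ended the calls of Rsad2, Ifit3b and Cmpk2 and of Ifit1, leaving out BD 1 or fresh 10x 2 those of Ifit3b and Rsad2, and leaving out fresh 10x 1 that of Ifit3b. Oas2 was at 0 in all 5 libraries and passed the test. The class held so few UMIs that 0 over it allows up to 0.0207 per 10000, so the gene was at least 1.56-fold lower than its epithelial-like level of 0.0323 (counting error only), and its fitted value is no measure of size. Eif2ak2, the RNA-activated kinase PKR (log2 fold change -1.43 ± 0.29 (SE), edgeR adjusted p = 2.66e-05), Ifi27 (log2 fold change -1.29 ± 0.16 (SE), edgeR adjusted p = 2.09e-10), Rtp4 (log2 fold change -1.09 ± 0.26 (SE), edgeR adjusted p = 0.000234) and Irf7 (0 to 0.44, log2 fold change -0.99 ± 0.28 (SE), edgeR adjusted p = 0.0019) completed the list. Isg15 (1.26, 0.718, 0.329, 0.659 and 0.324, log2 fold change -0.12 ± 0.22 (SE), edgeR adjusted p = 0.668), Bst2 (log2 fold change -0.17 ± 0.24 (SE), edgeR adjusted p = 0.587), Stat2 (log2 fold change 0.53 ± 0.32 (SE), edgeR adjusted p = 0.165) and Irf9 (log2 fold change -0.53 ± 0.25 (SE), edgeR adjusted p = 0.0715) did not pass. Within a library of this class a count of 0 allows up to 0.0607 to 0.239 per 10000 UMIs, more than the epithelial-like level of genes such as Oas2. The 10x libraries alone gave 7 higher and 8 lower with a median of -0.67, beside 11.7% and 20.8% of all genes and their median of -0.39. The BD libraries alone gave 8 and 9 with a median of 0.16, beside 17.2% and 25.3% and -0.31. Marker-gated cells from 2 libraries gave 3 and 5, beside 7.43% and 14.1%.

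Compared side by side, Trim30a was higher than in epithelial-like cells in all 4 classes tested, as were Parp14 and Herc6. Irf7 was lower in 3 of the 4 and not called in macrophage-like cells. The 4 comparisons share the epithelial-like sums, so a gene low in epithelial-like cells stands high in each. The difference between platforms in these class contrasts was tested as BD Rhapsody minus 10x for the 3 classes present in both BD libraries. None of the interferon-stimulated genes passed in macrophage-like, lymphocyte-like or fibroblast-like cells (lowest edgeR adjusted p = 0.239, 0.326 and 0.349), and 0.365%, 0.426% and 0.0225% of all genes did. At an unadjusted p under 0.05 there were 5, 4 and 3 of them, beside 12.5%, 8.46% and 12.9% of all genes.

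**Figure D3:**
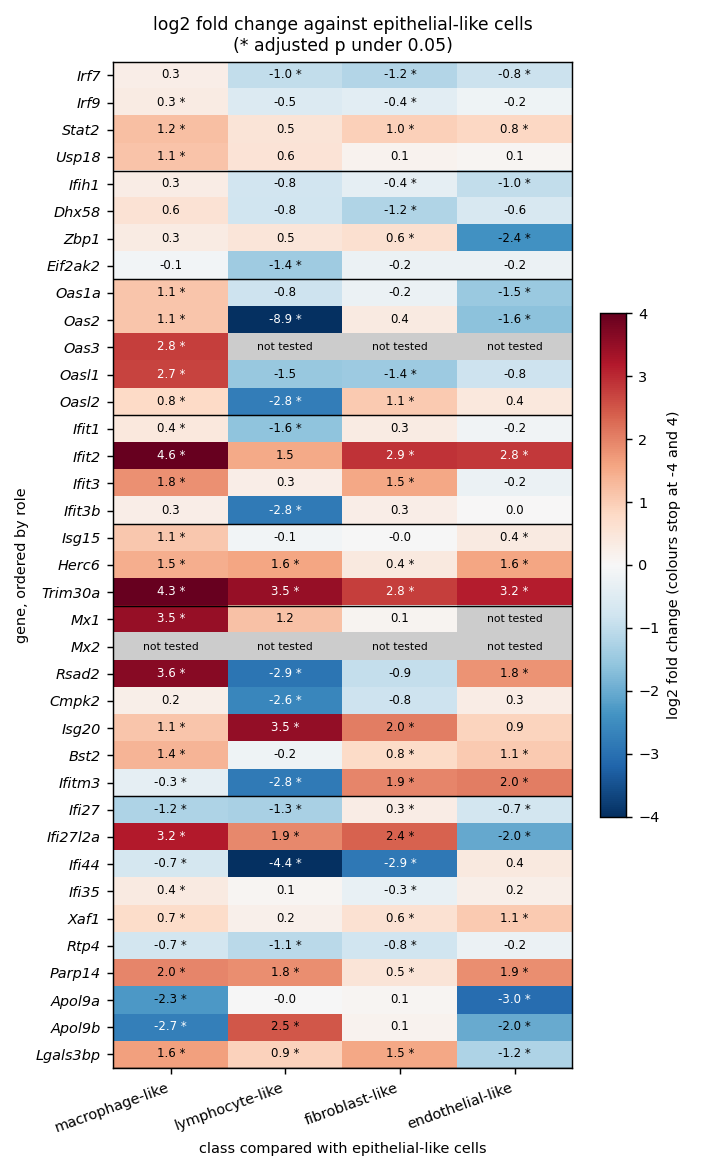
Log2 fold change of each gene against epithelial-like cells of the same libraries in macrophage-like, lymphocyte-like, fibroblast-like and endothelial-like cells, from edgeR with the library as a block. Stars mark an adjusted p under 0.05, and blanks are genes not tested. Trim30a, Parp14 and Herc6 are higher in all 4 columns, whereas Ifi44 is lower in 3 and Ifitm3 is higher in the stromal columns and lower in the immune ones.

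Of the genes upstream in the pathway, the ligands were close to absent. Ifnb1, interferon beta, had 0, 20, 9, 67 and 69 UMIs in the 5 whole libraries, and 16 of the 20, 8 of the 9, 66 of the 67 and 67 of the 69 were in macrophage-like cells. Its level there was 0, 0.184, 0.0809, 0.221 and 0.327 per 10000 UMIs, and 0 in the 50 macrophage-like cells of fresh 10x 1 allows up to 0.0828. Cells with an Ifnb1 UMI made up 0%, 5.61%, 2.81%, 8.30% and 9.73% of macrophage-like cells and at most 0.0803% of epithelial-like cells. Ifng, interferon gamma, had 16, 16, 21, 7 and 23 UMIs, of which 13, 7, 15, 3 and 18 were in lymphocyte-like cells (0.585, 0.558, 0.617, 0.0824 and 0.364 per 10000). Ifnk had 12, 24, 17, 0 and 1 UMIs and was thus seen almost only in the 10x libraries. The interferon alpha genes had 0 UMIs except 3 of Ifna2 in BD 2, 1 of Ifna7 in BD 1 and 1, 1, 0, 1 and 1 of Ifnab. Ifnz had 5, 7, 8, 7 and 6 UMIs and Ifne 1 in BD 1. The interferon lambda genes Ifnl2 and Ifnl3 had 0.

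Ifnar1, a chain of the type I receptor, had 0.102, 0.133, 0.155, 0.137 and 0.128 in epithelial-like and 0.883, 0.828, 0.809, 0.725 and 0.805 in macrophage-like cells (log2 fold change 2.79 ± 0.13 (SE), edgeR adjusted p = 1.65e-11), and it was also higher in lymphocyte-like (1.64), fibroblast-like (1.35) and endothelial-like cells (1.81). Ifnlr1, the chain that makes a cell responsive to interferon lambda, had 0.0413, 0.0511, 0.0612, 0.11 and 0.0958 in epithelial-like cells and fell in fibroblast-like (-4.10), endothelial-like (-2.84) and lymphocyte-like cells (-1.47). The counts that follow stand beside 28.7% higher and 32.1% lower of all genes in macrophage-like, 18.6% and 34.2% in lymphocyte-like, 31.7% and 41.5% in fibroblast-like and 24.3% and 34.6% in endothelial-like cells, and the lists are short. Of the 6 receptor genes, 5 were higher and 0 lower in macrophage-like, 3 and 2 in lymphocyte-like, 5 and 1 in fibroblast-like and 4 and 1 in endothelial-like cells. Of 9 genes of signal transduction the counts were 6 and 1, 6 and 3, 5 and 2, and 6 and 1 in the same order. Of the genes of upstream sensing, 10 of 13 were higher and 1 lower in macrophage-like cells, 8 and 2 of 12 in lymphocyte-like, 3 and 2 of 11 in fibroblast-like and 4 and 2 of 11 in endothelial-like cells. Irf8, a factor of the myeloid lineage, had 2.89 to 3.83 in macrophage-like and 0.00225 to 0.0057 in epithelial-like cells. Genes associated with interferon gamma were higher in 12 of 16, 9 of 14, 9 of 16 and 10 of 15 and lower in 1, 1, 3 and 0. Cxcl10, a chemokine that draws T cells, had 1.99, 3.04, 3.98, 4.85 and 4.68 in macrophage-like cells and at most 0.0155 in epithelial-like cells.

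Within epithelial-like cells these genes varied together from cell to cell. Over the genes detected in at least 5% of the cells (25 to 31 per library), the median Pearson r between pairs was 0.219, 0.277, 0.185, 0.238 and 0.176, computed on the natural log of 1 plus UMIs per 10000. Over all pairs of genes that also reached 5% of the cells the median was 0.00933 to 0.0157, and the 95th percentile 0.0744 to 0.0882. Those pairs were not matched to these genes by level or share of cells. The values are across cells that share a library and its depth, so they are a description. With each cell thinned to 2000 UMIs the median r was 0.0683 to 0.146, over the 9 to 16 genes still detected in 5% of cells. Pairs of all genes were not measured at that depth, so these lower values have no background beside them. Ifit1 with Isg15 had the highest median r of the pairs measured in all 5 libraries, 0.603 to 0.678 over the 5 libraries, followed by Oasl2 with Isg15 (0.595 to 0.692) and Oasl2 with Ifit1 (0.536 to 0.641). Irf7 with Isg15 had 0.509 to 0.677 and Irf7 with Bst2 0.495 to 0.666. Of 300 pairs among 25 genes, 44 had a median r of at least 0.4.

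Set against the sum of the other 36 genes, Irf7 had the highest r (median of the libraries 0.582, range 0.503 to 0.665). Isg15 had 0.570, Rtp4 0.535, Oasl2 0.528, Xaf1 0.521, Bst2 0.494, Ifi44 0.493 and Ifit1 0.470. At the other end were Isg20 (0.0501, range -0.0236 to 0.107) and Ifit2 (0.0849), which were both high in other classes, then Oas3 (0.187), Stat2 (0.191) and Cmpk2 (0.200). Ifit2 was detected in 1.20% to 2.68% of epithelial-like cells and Oas3 in 0.544% to 1.20%, so their r rests on few cells, whereas Isg20 was detected in 7.24% to 10.8%. The median r with the sum was 0.348 for the 15 genes with an ISRE match in the window and 0.283 for the 12 without, with ranges of 0.187 to 0.570 and 0.0501 to 0.582 that overlap, and Irf7 and Oasl2 were among those without. The sum itself had r of -0.0129 to 0.0696 with the log of the total UMIs of a cell. In epithelial-like cells the 3 most abundant genes, Ifitm3 first, held 49.5% to 58.7% of its UMIs. Each r with the sum therefore weighs them most, and r with a sum that leaves them out was not computed. Outside the 37 genes, the 10 with the highest median r with the sum, of 9685 compared, were B2m (0.488), Psmb8 (0.403), Iigp1 (0.392), H2-D1 (0.384), Lgals9 (0.375), H2-K1 (0.370), Phf11d (0.363), Igtp (0.348), Slfn2 (0.336) and Irgm1 (0.323). B2m, H2-D1 and H2-K1 encode parts of the MHC class I complex and Psmb8 a subunit of the immunoproteasome.

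The sum was uneven over epithelial-like cells. The 5% of cells with the highest sum held 23.4%, 20.3%, 27.5%, 29.7% and 30.3% of the UMIs of these genes and 4.12%, 3.28%, 4.20%, 4.34% and 4.23% of all UMIs. In the median cell the sum was 5.98 to 11.5 per 10000 UMIs and at the 95th percentile 38.1 to 78.7. Unevenness was not particular to this class. In macrophage-like cells the top 5% held 13.8%, 28.55%, 30.64%, 33.8% and 24.68% of the UMIs of these genes. The median macrophage-like cell had 11.86, 11.15, 8.133, 7.998 and 7.525, against 10.27, 11.54, 7.36, 6.695 and 5.976 in epithelial-like cells. Among the epithelial-like clusters at clustering resolution 1.0, the one led by Pip, Scgb1b27 and Cartpt had a sum of 22.8, 44.9, 19.8, 20.1 and 17.7. This was the highest in 4 of the 5 libraries. In fresh 10x 1 the cluster led by Aldh1a3 and S100g was higher, at 27.3 over 58 cells. The cycling cluster led by Ube2c and Birc5 had 6.47 to 11.3, the milk protein cluster led by Csn1s2a and Csn2 6.42 to 12.9, and the basal keratin cluster led by Krt5 and Krt14 8.60 to 15.3. A cluster led by Wif1 and Smr2, present with at least 20 cells in 4 libraries, had 5.02 to 9.0. Without the 5 abundant genes the Pip cluster had 9.37, 18.9, 7.85, 10.0 and 8.54 and was the highest in 3 of 5 libraries, the Aldh1a3 cluster leading in fresh 10x 1 (10.7) and BD 2 (8.98). The cycling cluster then had 2.73 to 3.81 and the basal keratin cluster 2.19 to 3.46, and the cycling cluster was above the basal one in 4 of 5 libraries, against 1 of 5 with all 37 genes. With each cell thinned to 2000 UMIs, 9 to 16 genes stayed above 5% detection and the median r was 0.0683, 0.146, 0.0787, 0.0912 and 0.0793.

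Between libraries, the epithelial-like cells of BD 1 carried less of many of these genes, and more of others, than those of the fresh 10x pair. Of 36 genes 14 were lower and 3 higher, beside 21.7% lower and 22.0% higher of 15443 genes, 43.7% in either direction, with a median log2 fold change of -0.47 against 0.02 over all genes. The spread in this fit comes from the fresh 10x pair alone, and BD 1 is assumed to vary as that pair does. By level, BD 1 lay below both fresh libraries for 19 of the 36 genes, above both for 11 and between them for 6. That split was counted for these genes alone. Bst2 had 0.859 and 0.947 in the fresh pair and 0.207 in BD 1 (log2 fold change -2.29 ± 0.13 (SE), edgeR adjusted p = 1.46e-06), and BD 2 had 0.176. Isg15 had 0.854 and 1.25 in the fresh pair and 0.365 in BD 1 (log2 fold change -1.69 ± 0.20 (SE), edgeR adjusted p = 8.93e-05) and 0.313 in BD 2. Neither gene's BD value overlapped the 10x values. Ifi27l2a (log2 fold change -1.47 ± 0.27 (SE), edgeR adjusted p = 0.00151), Usp18, the protease that removes Isg15 and dampens the receptor (log2 fold change -1.30 ± 0.36 (SE), edgeR adjusted p = 0.0151), and Ifi27 (log2 fold change -1.28 ± 0.13 (SE), edgeR adjusted p = 4.44e-05) fell by more than 1 on the log2 scale as well. Ifit3 (log2 fold change -1.06 ± 0.30 (SE), edgeR adjusted p = 0.0158), Irf7 (log2 fold change -1.0 ± 0.12 (SE), edgeR adjusted p = 0.000125) and Oasl1 (log2 fold change -0.93 ± 0.34 (SE), edgeR adjusted p = 0.0467) were lower, and so were Parp14 (-0.86), Ifi35 (-0.86), Ifitm3 (-0.79), Herc6 (-0.79), Zbp1 (-0.71) and Rtp4 (-0.63). Irf9 had 0.336 and 0.397 in the fresh pair and 0.666 in BD 1 (log2 fold change 0.70 ± 0.13 (SE), edgeR adjusted p = 0.0015). Oasl2 (log2 fold change 0.59 ± 0.19 (SE), edgeR adjusted p = 0.033) and Stat2 (log2 fold change 0.50 ± 0.17 (SE), edgeR adjusted p = 0.0332) were the other genes called higher. Ifit1 (log2 fold change -0.78 ± 0.33 (SE), edgeR adjusted p = 0.0833) and Lgals3bp (log2 fold change 0.17 ± 0.13 (SE), edgeR adjusted p = 0.337) did not pass. Platform, library and tumour cannot be told apart here, and mitochondrial share, 15.2% against 6.14% and 6.99%, and neutrophil markers in these cells, 1.26 against 5.12 and 5.52 per 10000, moved with BD 1; their part was not tested. Leaving out fresh 10x 2 moved the median to -0.16. The count of genes higher was 6 when scaled by total UMIs alone, beside 27.8% and 16.7% of all genes higher and lower. It was 1 with DESeq2, beside 10.9% of all genes higher, and 1 with the marker gate, beside 20.8%.

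In stored 10x, 4 of the 36 genes fell in epithelial-like cells and none rose, beside 0.641% lower and 1.79% higher of 15443 genes, 2.43% in either direction. The direction was nearly uniform, with 34 of 36 log2 fold changes negative, 19 genes (of 36) at an unadjusted p under 0.05, beside 17.0% of all genes, and a median of -0.50 against 0.00 over all genes. Bst2 stood at 0.445, under 0.859 and 0.947 in the fresh pair (log2 fold change -1.01 ± 0.12 (SE), edgeR adjusted p = 0.00353). Ifit3 had 0.0245 against 0.0675 and 0.103 (log2 fold change -1.78 ± 0.31 (SE), edgeR adjusted p = 0.0208). Isg15 had 0.538 against 0.854 and 1.25 (log2 fold change -0.95 ± 0.19 (SE), edgeR adjusted p = 0.0324), and Xaf1 had 0.152 against 0.226 and 0.251 (log2 fold change -0.64 ± 0.14 (SE), edgeR adjusted p = 0.0452). Stored 10x lay below both fresh libraries for these genes. The count of genes lower was 2 with BD 2 grouped by its title, at clustering resolution 2.0 or with the marker gate. The shares of all genes lower were then 0.602%, 0.266% and 0.263%. Without the filter on low counts the count was 15, beside 1.92%. The calls of Isg15 and Xaf1 ended in 3 and 6 of the other analyses. Ifit1 (log2 fold change -0.93 ± 0.34 (SE), edgeR adjusted p = 0.19), Ifi27l2a (log2 fold change -0.68 ± 0.26 (SE), edgeR adjusted p = 0.212), Ifitm3 (log2 fold change -0.42 ± 0.16 (SE), edgeR adjusted p = 0.211), Irf7 (log2 fold change -0.27 ± 0.12 (SE), edgeR adjusted p = 0.277), Irf9 (log2 fold change -0.17 ± 0.13 (SE), edgeR adjusted p = 0.588), Stat2 (log2 fold change -0.05 ± 0.17 (SE), edgeR adjusted p = 0.927) and Lgals3bp (log2 fold change -0.04 ± 0.14 (SE), edgeR adjusted p = 0.941) did not pass. Stored 10x was below both fresh libraries for 29 of the 36 genes, above both for 1 and between them for 6. The fresh pair itself was not alike, since fresh 10x 2 exceeded fresh 10x 1 for 31 of the 36 genes, and without fresh 10x 2 the median was -0.24. These counts of position were made for the 36 genes alone, so no share over all genes stands beside them. With 1 stored library, storage and library cannot be told apart.

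**Figure D4:**
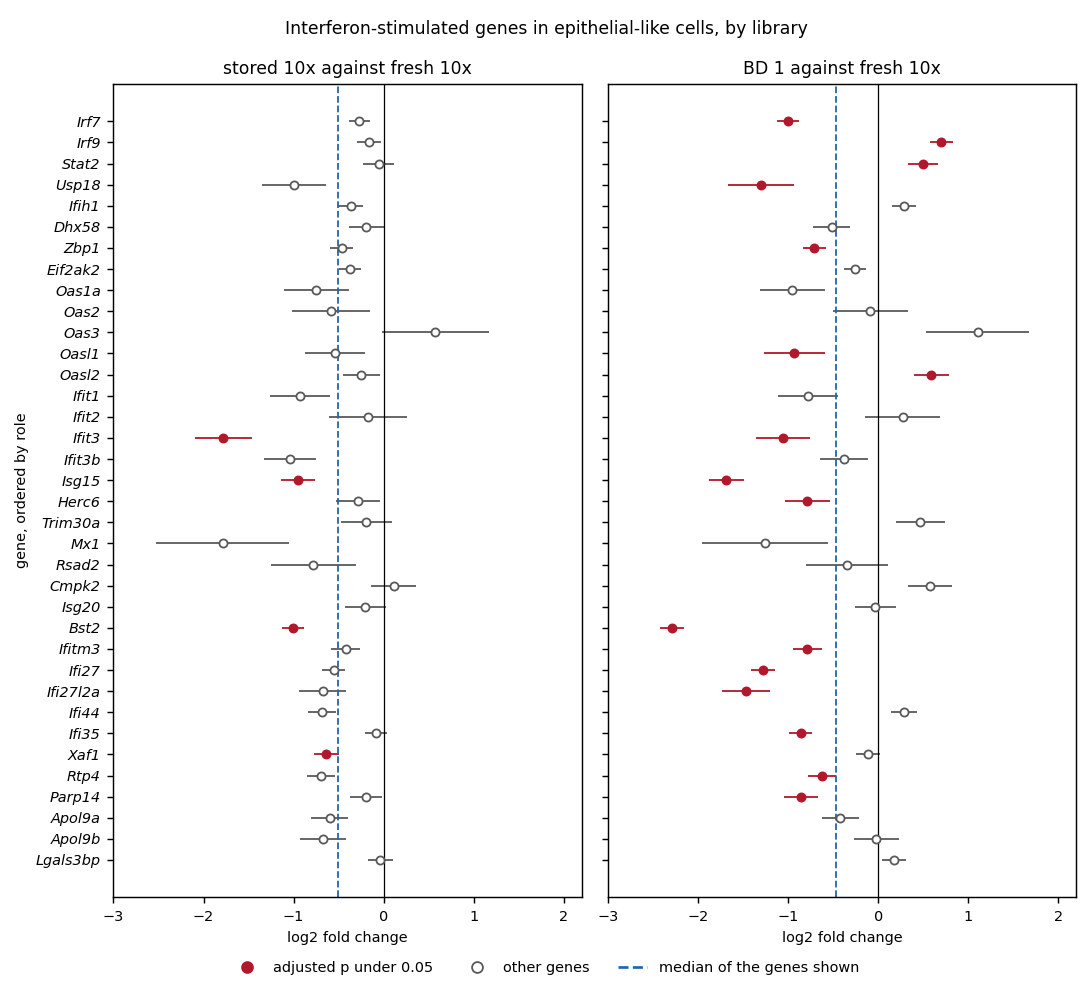
Log2 fold change with its standard error of each gene in epithelial-like cells, stored 10x and BD 1 each against the fresh 10x pair. Filled red points have an adjusted p under 0.05 and dashed lines mark the medians over the genes (-0.50 and -0.47). Bst2, Ifit3 and Isg15 pass in both panels.

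Sums over whole libraries were compared as well, where fewer cells of a class and less RNA per cell cannot be told apart. In BD 1 against fresh 10x, 10 of the 36 genes were lower and 4 higher, beside 18.6% and 20.1% of 16973 genes, 38.7% in either direction (median -0.42 against 0.03). Bst2 (log2 fold change -2.12 ± 0.12 (SE), edgeR adjusted p = 0.00163) and Isg15 (log2 fold change -1.67 ± 0.24 (SE), edgeR adjusted p = 0.00802) again led the genes that fell, with Ifi27 (-1.28), Ifi35 (-0.95), Irf7 (-0.93), Herc6 (-0.76), Parp14 (-0.73), Rtp4 (-0.64), Ifitm3 (-0.64) and Zbp1 (-0.54). Those higher were Trim30a (0.83), Irf9 (0.73), Stat2 (0.67) and Lgals3bp (0.52). In stored 10x none of the 36 passed in edgeR, beside 0.0354% lower and 0.112% higher of all genes, 0.147% in either direction. Of the 36, 9 had an unadjusted p under 0.05, beside 15.9% of all genes, and the median was -0.44. DESeq2 called 3 lower, beside 0.913% of all genes. Ifit1 (-0.86), Isg15 (-0.97) and Bst2 (-0.89) had negative values there and did not pass. Both library comparisons share the fresh 10x pair. Of the genes around the pathway in epithelial-like cells, the immunoproteasome subunits Psmb8 and Psmb9 fell in BD 1 (-1.05 and -1.17) and in stored 10x (-0.53 and -0.58), and Irf1, a factor of the same family as Irf7 and Irf9, was higher in both (1.55 and 0.72). In stored 10x no receptor of 6 and no upstream sensing gene of 12 passed in edgeR, beside 2.43% of all genes. At an unadjusted p under 0.05 there were 1 and 2, beside 17.0%. In BD 1 they gave 1 higher and 2 lower of 6, and 5 higher and 1 lower of 12, beside 22.0% higher and 21.7% lower.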

How the data were processed

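Gene by cell matrices of UMI counts were used as deposited by the authors for all 5 libraries, whole numbers with no normalization. Per the submitters' processing notes, Cell Ranger 3.0.1 and the build mm10 were used, and how the BD Rhapsody counts were made is not given in the sources used here. Spellings of symbols were merged across libraries. The interferon-stimulated genes and the lists around them were chosen with earlier results of these data known.

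Cells with at least 200 genes were clustered (scanpy 1.11.5, igraph 0.11.9, Python 3.11.15) on 2000 variable genes, 30 components and 15 neighbours at Leiden resolution 1.0, leaving out the 37 genes and the interferon gamma associated list. Clusters were named from markers. Lymphocyte-like cells were not separate at resolution 1.0, so that comparison used resolution 2.0 for both classes, a choice made after seeing the data. A doublet caller marked 31 cells in all and under 0.5% of cells in 4 libraries, where it had not worked, so doublets were in effect not removed.

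Counts were summed per class and library with at least 20 cells and tested with edgeR 4.0.16 in R 4.3.3 (quasi-likelihood, TMM scaling, filterByExpr, Benjamini-Hochberg over all genes tested, threshold 0.05). The same library gave both sums of a class comparison and was therefore its block. Libraries were compared in 1 fit of all 5. DESeq2 1.42.0, other scalings and filters, single libraries left out, each platform alone and cells gated by marker transcripts were alternatives. Values are given in full for genes past the threshold, at most 8 in each direction by size, and for Isg15, Ifit1, Irf7, Stat2, Irf9, Bst2, Ifitm3, Ifi27l2a and Lgals3bp. Tested on simulated counts of the BD 1 comparison (16480 genes), the fit called 92% of genes changed by 1 and 100% of those changed by 2 on the log2 scale. For the macrophage-like comparison (13210 genes) it called 59% and 95.9%. The simulated spread was a fixed value set for each comparison, around 1 mean profile, and was not estimated from these libraries. The rates therefore check the fit and do not measure its power on these data. Floors are 3 counts, and they cover counting error only.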

Additional observations from a re-analysis of the deposited data

How the results depend on the processing

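Over single genes, 1413 of 1627 alternative values kept their direction and side of the threshold, 189 kept the direction and no longer passed, 22 moved by more than the replicate spread and 3 reversed. The 3 that reversed did so with cells gated by marker transcripts, where the log2 fold change of Irf9 was -0.035 and that of Isg20 -1.07 in macrophage-like cells, and that of Rsad2 was 0.49 in lymphocyte-like cells. The cause was not tested. That gate left 2 libraries for macrophage-like, lymphocyte-like and endothelial-like cells.

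Counts of genes called moved as follows. With DESeq2, BD 1 against fresh 10x had 1 gene higher (4 in edgeR) in whole libraries, beside 12.3% of all genes (20.1% in edgeR). In its epithelial-like cells it had 1 higher (3 in edgeR), beside 10.9% (22.0% in edgeR). Stored 10x had 3 lower in whole libraries (0 in edgeR), beside 0.913% (0.0354% in edgeR). Without the filter on low counts, 6 were lower in whole BD 1 (10 with it), beside 9.92% of all genes (18.6% with it). In stored epithelial-like cells 15 were lower (4 with it), beside 1.92% (0.641% with it). Scaling by total UMIs, chosen after seeing the data, gave 6 lower in whole BD 1, beside 15.2% of all genes. It gave 6 higher in the epithelial-like cells of BD 1, beside 27.8%. With BD 2 grouped by its title, with Leiden resolution 2.0 and with the marker gate, stored epithelial-like cells each had 2 lower. The shares of all genes lower were 0.602%, 0.266% and 0.263%. The gate gave 1 higher in BD 1 epithelial-like cells, beside 20.8% of all genes, and 12 higher in macrophage-like cells, beside 17.1%. It gave 3 higher and 5 lower in lymphocyte-like cells, beside 7.43% and 14.1%. In fibroblast-like cells it gave 5 lower, beside 36.2%. Without the library block, macrophage-like cells had 15 higher and 3 lower, beside 22.2% and 22.8% of all genes. Fibroblast-like cells then had 5 lower, beside 29.9%. Leaving out 1 library gave 5 to 10 lower in fibroblast-like cells. There were 5 without fresh 10x 2, beside 37.4% of all genes, and 10 without stored 10x, beside 39.0%. No paired analysis was possible for the comparisons between libraries because their groups share fewer than 2 replicate numbers. The median r with each cell thinned to 2000 UMIs was 0.0683, 0.146, 0.0787, 0.0912 and 0.0793, and the Spearman value in BD 1 was 0.195.

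Scaling by total UMIs moved the median of all genes to 0.16 and 0.18 in BD 1 (whole and epithelial-like), -0.26 in macrophage-like, -0.07 in lymphocyte-like and -0.00 in endothelial-like cells. The medians of the 37 genes were then -0.29, -0.31, 0.74, 0.07 and 0.14, so those of lymphocyte-like and endothelial-like cells changed sign. The share of calls that were higher went from 52.0% to 62.0%, 50.3% to 62.5%, 47.2% to 37.3%, 35.3% to 46.2% and 41.2% to 51.4%. Over all genes, stored 10x gave 25 calls in whole libraries against 347 with DESeq2, 67 with its size factors, 2 without the filter and 13 with BD 2 by title. In epithelial-like cells it gave 375 against 149 with DESeq2, 1228 without the filter, 199 at resolution 2.0 and 156 with the gate. BD 1 epithelial-like cells gave 6748 against 3846 with DESeq2, and lymphocyte-like cells 6562 against 2617 with the gate. Groups of 1 library and the few cells of the lymphocyte-like and endothelial-like classes limit what these counts can show.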

Other observations

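A cluster of 15 cells led by Siglech, a marker of plasmacytoid dendritic cells, was kept out of the named classes. Bst2 had 130 UMIs there, in 15 of 15 cells (14.9 per 10000 UMIs). Ifi27l2a had 28 UMIs in 6 cells, Trim30a 18 in 9 cells and Irf7 6 in 4 cells, while Ifitm3 and Rtp4 had 0. A cluster led by mitochondrial genes had a summed level of the 37 genes of 12.2, 17.6, 5.34, 7.51 and 6.18 per 10000 UMIs in fresh 10x 1, fresh 10x 2, stored 10x, BD 1 and BD 2.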
